A study of Homo sapiens with 6 samples.

Results

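Of 10007 protein-coding genes with a mean of at least 5 CPM (read counts scaled to a common library total) in control cells, 120 are described here as genes lowered by sedanolide. The genes were chosen by their CPM in these same libraries. A gene was taken when its highest CPM in the sedanolide-treated libraries was at or under its lowest CPM in the control libraries divided by 1.3. A total of 132 genes met this ratio, and 12 of them were set aside because the rule leaves out 7 genes by name, such as G6PC1, IGFBP1 and SLC12A3, together with the apolipoprotein, complement and coagulation genes. The data are RNA-seq libraries of HepG2, a human hepatoblastoma line, here carrying 2 luciferase genes on an artificial chromosome. The first, SLR3, is driven through antioxidant response elements (ARE), and the second, ELuc, by a thymidine kinase promoter alone. Both groups of cells carry them. Sedanolide is a phthalide from celery. There were 3 libraries of cells exposed to 100 μM sedanolide for 24 h and 3 libraries of control cells, for which the labels name no vehicle. According to the methods, sedanolide was dissolved in DMSO, and they do not say whether the control cells received DMSO. If they did not, the solvent and sedanolide cannot be told apart. CPM were computed from the deposited expected counts by the total of each library, between 16420258 and 26714853 counts. The selection used the values of this contrast themselves, so that levels and fold changes of these genes are given as a description, without a test. All values belong to 1 cell line at 1 dose and 1 time, and nothing in the labels says whether the libraries came from separate cultures.

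HepG2 cells keep part of the hepatocyte programme. Hepatocytes take up glucose, organic anions and amino acids through solute carriers, bind fatty acids in the cytosol, handle steroids and thyroid hormones, and secrete most plasma proteins. They are also polarised epithelial cells with tight and adherens junctions, and they remove damaged organelles and protein aggregates by autophagy. Many genes that mark the liver have promoters with few CpG dinucleotides, and some of these carry a TATA box. HNF4 and the C/EBP proteins are transcription factors known for binding at such genes.

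The promoter sequences of the lowered genes and of all genes at the minimum level were read for these features. For each gene, the 250 bases before the start of its Ensembl canonical transcript (GENCODE 44, GRCh38) were read from the genome, which was possible for all 120 lowered genes and for 10005 of the 10007 genes. The median number of CpG dinucleotides in this window was 13 in the lowered genes and 23 in all 10005 genes. Windows with fewer than 5 CpG were found at 25 of the 120 genes (20.8%) and at 375 of the 10005 genes (3.75%). The median GC content was 62.2% and 66.4%. The letters TATAAA, read on the strand of the gene, were present in 11 lowered genes (9.17%) and in 298 of all genes (2.98%). The 11 genes were CKB, FABP1, IL1RN, RNF144B, SERPINA7, SOX6, SRARP, SYNE1, TCTA, TNFSF10 and TTR. The HNF4 letters CAAAGTCCA, on either strand, were present in 4 lowered genes (3.33%) and in 26 of all genes (0.26%). The C/EBP letters TTGCNNAA, on either strand, were present in 12 lowered genes (10.0%) and in 537 of all genes (5.37%). These shares are a description of letters in a window and not of bound sites, and the lowered genes also had lower levels in control cells than the other genes, as given further on.

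The HNF4 matches lay in PDZK1, SLC22A9, SLC5A9 and TNFRSF14, of which the first 3 serve transport across the plasma membrane. They are shown because this was the motif with the largest ratio of the share in the lowered genes to the share in all genes, a choice made after the shares were seen. Capitals mark the match or its reverse complement, and each sequence is written 5′ to 3′ on the strand of its gene, with up to 10 bases on each side within the window. The matches start 37, 54, 13 and 94 bases before the canonical start. The sites lie at chr1:145707387-145707415 (minus strand), chr11:63369721-63369749, chr1:48222693-48222715 and chr1:2556267-2556295 (plus strand). The canonical start of PDZK1, SLC5A9 and TNFRSF14 lies inside the span of the gene, and other transcripts of these genes begin further upstream.
PDZK1: aatctttgttCAAAGTCCAgtgagttgca
SLC22A9: aagtgtagacCAAAGTCCAgtgctgactt
SLC5A9: aggagcgcctCAAAGTCCAgcct
TNFRSF14: gaaacacagaTGGACTTTGgggggctccc

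The whole window is shown for FABP1 and SERPINA7, which held both TATAAA and the C/EBP letters, and for SLC22A9. In FABP1, TATAAA starts 31 bases before the canonical start, and in SERPINA7 it starts 29 bases before it. Capitals mark TATAAA, TTGCNNAA on either strand and the HNF4 letters. The windows are chr2:88128063-88128312 (minus strand), chrX:106038728-106038977 (minus strand) and chr11:63369535-63369784 (plus strand), with 4, 0 and 3 CpG.
FABP1: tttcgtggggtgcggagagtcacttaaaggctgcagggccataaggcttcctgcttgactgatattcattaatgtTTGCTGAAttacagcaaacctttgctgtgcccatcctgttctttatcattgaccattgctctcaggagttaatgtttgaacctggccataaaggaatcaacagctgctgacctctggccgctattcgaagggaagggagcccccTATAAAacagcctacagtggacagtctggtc
SERPINA7: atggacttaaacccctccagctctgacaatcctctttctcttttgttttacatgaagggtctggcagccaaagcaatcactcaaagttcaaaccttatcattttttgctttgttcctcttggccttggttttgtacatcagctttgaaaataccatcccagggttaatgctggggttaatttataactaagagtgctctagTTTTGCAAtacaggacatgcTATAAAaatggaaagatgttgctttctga
SLC22A9: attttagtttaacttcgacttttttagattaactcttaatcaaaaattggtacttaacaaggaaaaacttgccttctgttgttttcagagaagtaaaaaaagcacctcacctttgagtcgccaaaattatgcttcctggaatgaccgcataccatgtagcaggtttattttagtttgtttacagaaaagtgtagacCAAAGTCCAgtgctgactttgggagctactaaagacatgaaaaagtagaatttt

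Other letters searched on both strands in the same windows gave shares that were lower or near those of all genes. The antioxidant response element letters TGACNNNGC were present in 8 lowered genes (6.67%) and in 12.2% of all genes, and the E-box CACGTG in 6 (5.0%) and in 9.70%. The cyclic AMP response element TGACGTCA was found in 2 lowered genes (1.67%) and in 3.27% of all genes. The FOXO letters GTAAACA were found in SLC22A9, SOX6 and TMEM140, that is in 2.5% of the lowered genes and in 1.70% of all genes.

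By construction, the groups did not overlap for any of the 120 genes, whereas this order was found for 10.0% of the 10007 genes. The mean level left in sedanolide-treated cells was between 14.3% and 71.3% of the control mean, with a median of 54.6%. The quartiles were 47.4% and 61.6%. It was at or under 50% for 41 genes and over 50% for 79 genes. The same rule turned around, with the lowest sedanolide library at least 1.3 times the highest control library, was met by 53 genes (0.53%), compared with 132 genes (1.32%) for the lowered direction. Both directions used the minimum of 5 CPM in control cells, so that raised genes with low control levels were not counted. The numbers of the directions are therefore not like for like. The plot of each gene in each library shows the values behind these shares.

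**Figure D1:**
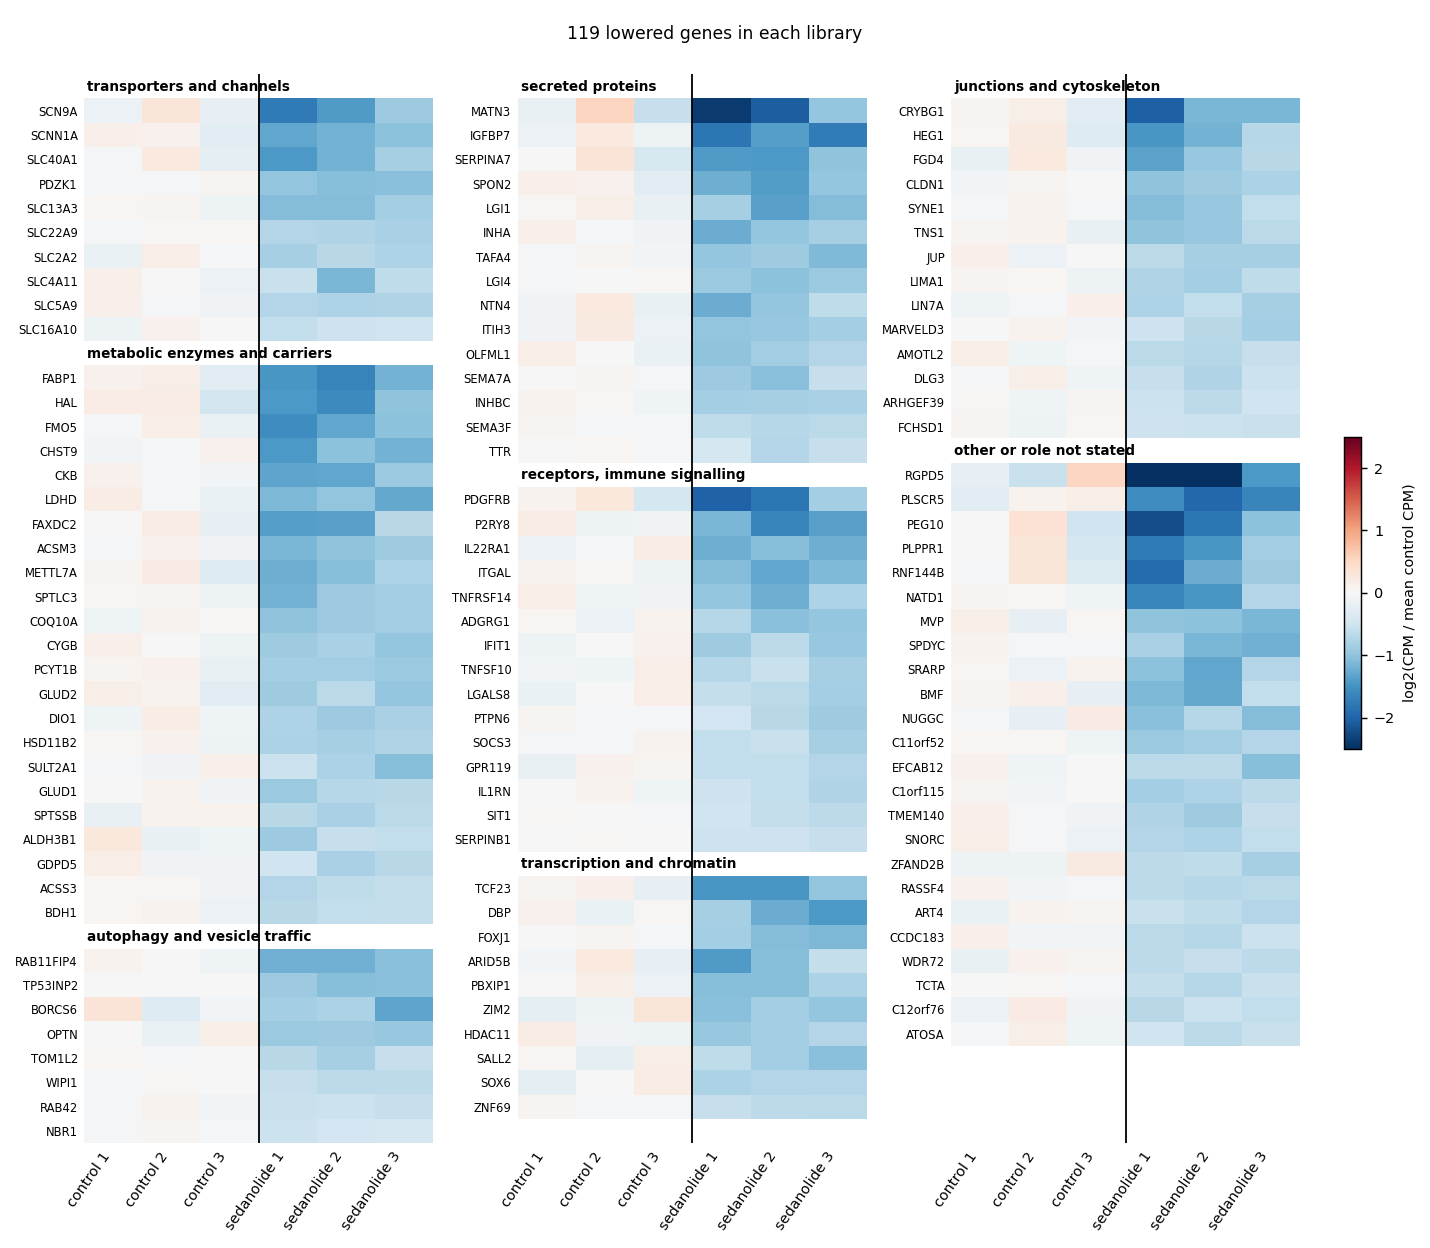
Each row is 1 of 119 of the 120 lowered genes, ordered within its role by the level left, and each column is 1 library. The colour is log2 of the CPM over the mean control CPM (blue is lower, red is higher, and the scale ends at 2.5 in either direction). By mean level left, the lightest row is NBR1, at 71.3% of control, and the darkest is RGPD5, at 14.3%.

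The lowered genes were mostly of moderate abundance. Their mean control level was between 5.07 and 6855 CPM with a median of 21.6 CPM, and the median of all 10007 genes was 38.3 CPM. A control mean under 10 CPM was found for 31 lowered genes (25.8%), compared with 11.2% of the 10007 genes, and 59 and 30 genes were at 10 to 50 CPM and at 50 CPM or above. In the second deposited table, which gives log2(TPM + 1) and holds 108 of the 120 genes, the median control level was 16.6 TPM (transcript counts scaled by transcript length and library size) for the lowered genes and 24.7 TPM for the 9683 genes that met the minimum and are in that table. In TPM the groups did not overlap for 106 of the 108 genes, the exceptions being RGPD5 and TOM1L2. With levels set per transcript length, the most abundant lowered genes in control cells were PEG10 (2109 TPM), FABP1 (631 TPM), GLUD1 (483 TPM), CKB (148 TPM) and NBR1 (137 TPM).

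**Figure D2:**
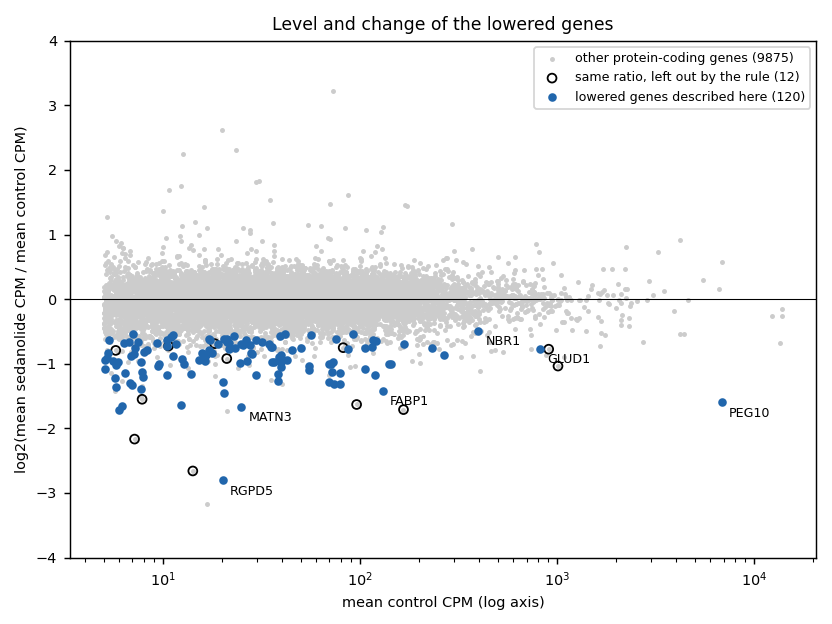
The x axis gives the mean control CPM on a log axis and the y axis the log2 ratio of the mean sedanolide CPM to the mean control CPM, for 10007 protein-coding genes. Blue points are the 120 lowered genes, which reach from 5.07 to 6855 CPM, open circles are the 12 genes that met the ratio and were left out, and grey points are the other 9875 genes.

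In the quasi-likelihood test of edgeR across the 14104 features that passed its filter on low counts, 30 of the 120 lowered genes were past both thresholds, a fold change of 1.5 and an FDR of 0.05. In that fit 0.312% of all features were past both in the lowered direction and 0.674% in either direction. Since the rule used the same contrast, this count is given without reading anything from it. All 120 lowered genes passed the filter. The median fitted log2 fold change was -0.83 for the lowered genes and 0.01 for all features. The 30 genes are marked below as past both thresholds where they are described.

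The number of such genes depended on the libraries and the model. Counts of the lowered genes past both thresholds were 100 with DESeq2, where 1.4% of all features were, and 98 in edgeR with a term for the side of the libraries described further on, where 1.63% were. The count was 0 without control 1, without control 2, without sedanolide 1 or without sedanolide 2, 3 without control 3 and 42 without sedanolide 3. When the rule itself was applied to 5 libraries, between 129 and 335 genes met it, and the largest number came from leaving out sedanolide 3. At least 118 of the 120 genes were among them each time. This overlap was fixed in advance, since leaving out a library can only widen the ratio of a lowered gene. A lowered gene could drop out only through the minimum of 5 CPM in control cells.

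Transporters and their partners made up 10 of the lowered genes, with a median of 54.3% of control and 4 genes past both thresholds. SLC2A2 encodes GLUT2, the facilitative glucose transporter of hepatocytes. It was at 208, 262 and 228 CPM in control cells and at 132, 144 and 137 CPM in sedanolide-treated cells (log2 fold change -0.71, SE 0.12), and the sedanolide values lay closer together than the control values. SLC22A9 encodes OAT7, an organic anion transporter of the liver. Its levels were 20.8, 22.2 and 22 CPM in control cells and 13, 12.9 and 12.3 CPM in sedanolide-treated cells, that is 21.7 ± 0.75 and 12.7 ± 0.39 CPM (SD, n = 3 each), and it was past both thresholds. PDZK1, a scaffold protein that holds transporters and the HDL receptor at the membrane, was at 53.7, 54.3 and 58.0 CPM and at 27.9, 26.4 and 26.8 CPM and was also past both thresholds. RSEM gave it fractional counts in all 6 libraries, so that part of its reads were shared with other loci. For both SLC22A9 and PDZK1 the libraries of a group lay close together.

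The other solute carriers were SLC40A1, the iron exporter ferroportin, at 69.3, 85.4 and 60.9 CPM and at 26.5, 31.9 and 40.7 CPM, and SLC13A3, a sodium-dependent dicarboxylate transporter, at 74.2, 74.7 and 65.5 CPM and at 33.5, 33.9 and 39.5 CPM. In both genes sedanolide 3 was the highest of the treated libraries. SLC13A3 was past both thresholds and SLC40A1 was not (log2 fold change -1.08, SE 0.19). SLC5A9, a sodium-dependent sugar transporter, was at 25.1, 22.6 and 21.7 CPM and at 13.9, 13.5 and 13.8 CPM. SLC4A11 was left at 59.1% and SLC16A10 at 68.7% of control. Subunits of sodium channels were also in this group. SCNN1A, the alpha subunit of the epithelial sodium channel, was at 41.8, 41.4 and 31.8 CPM and at 15.5, 17.0 and 18.8 CPM and was past both thresholds. SCN9A, a voltage-gated sodium channel known from sensory neurons, was at 40.1% of control.

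Metabolic enzymes and carriers were the largest group with a stated role, with 23 genes at 37.3% to 64.5% of control (median 54.2%), of which 8 were past both thresholds. FABP1, the fatty acid binding protein of the liver and a target of PPARA, was at 140, 144 and 107 CPM in control cells and at 47.3, 40.9 and 57.5 CPM in sedanolide-treated cells (log2 fold change -1.38, SE 0.17). Even its highest treated library stayed well under its lowest control library, control 3. HAL, histidine ammonia-lyase, which starts histidine breakdown, was at 7.92, 7.98 and 5.07 CPM and at 2.58, 2.32 and 3.47 CPM. FMO5, a flavin-containing monooxygenase, was at 68.0, 78.2 and 61.9 CPM and at 23.5, 28.3 and 33.9 CPM. CKB, the brain form of creatine kinase, was at 128, 114 and 114 CPM and at 47.8, 48.4 and 62.3 CPM. FABP1, FMO5 and CKB were past both thresholds, and in each of the 4 genes sedanolide 3 was the highest treated library.

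Further enzymes past both thresholds were CHST9, a sulfotransferase for N-acetylgalactosamine (43.5% of control), LDHD, the D-lactate dehydrogenase (45.8%), ACSM3, a medium-chain acyl-CoA synthetase (49.7%), SPTLC3 (50.7%) and COQ10A, a coenzyme Q binding protein (52.7%). SPTLC3 and SPTSSB are a catalytic and a small subunit of serine palmitoyltransferase, the enzyme that begins sphingolipid synthesis. SPTLC3 was at 75.7, 76.7 and 66.7 CPM and at 32.3, 38.7 and 40.1 CPM. SPTSSB was at 9.14, 11.1 and 11.1 CPM and at 6.46, 5.99 and 6.54 CPM (log2 fold change -0.68, SE 0.14). GLUD1, the mitochondrial glutamate dehydrogenase, was at 819, 866 and 773 CPM in control cells and 432, 500 and 507 CPM in sedanolide-treated cells. Its copy GLUD2, which arose by retrotransposition and is near identical in sequence, was at 5.79, 5.60 and 4.37 CPM and at 2.84, 3.28 and 2.69 CPM. Both had fractional counts in all 6 libraries, so that the level of GLUD2 is uncertain and the 2 genes do not give separate observations.

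Enzymes of steroid and lipid handling were also among them. HSD11B2, which inactivates cortisol, was at 17.4, 18.4 and 15.7 CPM and at 9.93, 9.69 and 10.3 CPM. SULT2A1, the sulfotransferase of dehydroepiandrosterone and bile acids, was at 43.2, 42.3 and 49.3 CPM and at 31.0, 25.9 and 21.5 CPM, with sedanolide 3 the lowest. BDH1, the mitochondrial hydroxybutyrate dehydrogenase of ketone body metabolism, was at 64.5% of control, and ACSS3, a mitochondrial acyl-CoA synthetase, at 63.8%. The remaining genes of this group were PCYT1B, an enzyme of phosphatidylcholine synthesis, CYGB, the globin cytoglobin, ALDH3B1, GDPD5, FAXDC2, METTL7A and DIO1.

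DIO1 belongs to a group of genes with known roles in the handling of thyroid hormones, put together after the values were seen. TTR and SERPINA7 encode transthyretin and thyroxine-binding globulin, plasma carriers of thyroid hormone made by the liver. DIO1 is the type 1 deiodinase, which converts thyroxine to its active form, and SLC16A10 transports aromatic amino acids and thyroid hormones. SERPINA7 was at 37.8, 48.0 and 28.8 CPM in control cells and at 14.4, 14.1 and 18.9 CPM in sedanolide-treated cells. DIO1 was at 16.4, 20.2 and 16.5 CPM and at 10.4, 9.47 and 10.1 CPM. TTR was at 39.5, 40.5 and 38.1 CPM and at 29.1, 23.8 and 26.3 CPM. SLC16A10 was at 38.4, 45.3 and 41.9 CPM and at 27.3, 29.4 and 29.5 CPM, which placed it last inside the ratio of 1.3. SERPINA7 had the lowest share left, at 41.4%, and TTR and SLC16A10 kept 67.1% and 68.7%. None of the 4 was past both thresholds. In TPM, TTR had the highest control level of them, at 134 TPM.

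Secreted proteins and guidance molecules comprised 15 genes at 31.5% to 67.1% of control (median 51.6%), 6 of them past both thresholds. MATN3, an extracellular matrix protein of cartilage, was at 22, 36.1 and 16.9 CPM and at 4.78, 5.99 and 12.8 CPM. Its share left was the lowest of the group, but the libraries of each condition differed by more than 2-fold, and it was not past both thresholds (log2 fold change -1.62, SE 0.42). IGFBP7, a secreted protein that binds insulin-like growth factors, was at 11, 14.6 and 11.3 CPM and at 3.51, 4.72 and 3.64 CPM and was past both thresholds (log2 fold change -1.59, SE 0.19). SPON2, an extracellular matrix protein, was at 32.6, 31.9 and 24.6 CPM and at 12.8, 11.3 and 15.2 CPM and was past both thresholds.

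INHA and INHBC encode the inhibin alpha subunit and an activin beta subunit that is made in the liver. INHA was at 13.8, 12.4 and 12 CPM in control cells and at 5.41, 6.48 and 7.18 CPM in sedanolide-treated cells. INHBC was at 18.1, 17.4 and 15.8 CPM and at 9.51, 9.66 and 9.81 CPM. Both genes were past both thresholds. LGI4 and TAFA4, secreted proteins best known from the nervous system, were past both thresholds as well. LGI4 was at 15.9, 16.3 and 16.7 CPM and at 8.57, 8.05 and 8.62 CPM, and TAFA4 at 35.2, 37.7 and 34.2 CPM and at 18.3, 19.4 and 16.6 CPM. Their libraries lay close together within each group. ITIH3, the heavy chain of a plasma inhibitor that binds hyaluronan, was at 11.8, 14.6 and 11.3 CPM and at 6.31, 6.51 and 6.98 CPM. The other genes of the group were LGI1, NTN4, OLFML1, SEMA7A and SEMA3F at 47.5% to 62.5% of control.

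Receptors and genes of immune signalling comprised 15 genes, which kept more of their level than the other groups (36.4% to 68.8% of control, median 61.5%), with 3 past both thresholds. The difference from the other groups was not tested. IL22RA1, the receptor chain through which interleukin-22 acts on hepatocytes, was at 9.50, 10.1 and 11.8 CPM and at 4.47, 5.02 and 4.51 CPM. ITGAL, an integrin subunit of leukocytes, was at 14.8, 14.2 and 12.7 CPM and at 6.57, 5.65 and 6.50 CPM. P2RY8, a G protein-coupled receptor of lymphoid cells, was at 6.58, 5.32 and 5.47 CPM and at 2.63, 1.83 and 2.27 CPM. These 3 genes were the ones past both thresholds. PTPRC, the marker that all leukocytes share, was at 0.18 CPM or less in every library and MARCO was at 0. The other markers of macrophages and leukocytes were detected, LYZ at 456 to 1358 CPM, CD68 at 9.10 to 14.4 CPM and CD14 at 1.44 to 3.84 CPM, and their part in these levels was not tested.

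PDGFRB, a receptor tyrosine kinase that marks stellate cells and fibroblasts, was at 21.8, 24.5 and 15.0 CPM in control cells and at 5.05, 5.84 and 11.4 CPM in sedanolide-treated cells (36.4% of control, log2 fold change -1.42, SE 0.33). It was higher in control 1, control 2 and sedanolide 3 than in the other libraries of their groups. COL1A2, DCN and LUM, which define stellate cells and fibroblasts, were at 0 in all libraries. TNFRSF14, TNFSF10 and LGALS8 encode a receptor and a ligand of the TNF families and a galectin. TNFSF10 (TRAIL) was at 24.4, 23.5 and 28.4 CPM and at 15.5, 17.2 and 14.2 CPM, and LGALS8 at 150, 166 and 188 CPM and at 112, 105 and 93.4 CPM. In both genes control 3 was the highest control library and sedanolide 3 the lowest treated library, whereas in PDGFRB control 3 was the lowest and sedanolide 3 the highest of its group. SOCS3, a feedback inhibitor of cytokine receptors, was at 7.25, 7.19 and 7.98 CPM and at 4.89, 5.09 and 4.23 CPM. IL1RN, the interleukin-1 receptor antagonist, was at 64.7% and IFIT1, an interferon-induced RNA-binding protein, at 56.5% of control. The others were PTPN6, SIT1, GPR119, ADGRG1 and SERPINB1, the last with a narrow spread at 91.1, 93.1 and 90.6 CPM and at 64.1, 63.6 and 61.4 CPM.

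Autophagy and vesicle traffic comprised 8 genes at 45.1% to 71.3% of control, with 3 past both thresholds. NBR1 and OPTN are receptors that carry ubiquitinated cargo to autophagosomes, WIPI1 binds the phosphoinositide of the growing membrane, and TP53INP2 takes part in autophagosome formation. OPTN was at 42.9, 38 and 47.1 CPM and at 22.3, 22.7 and 22 CPM. TP53INP2 was at 141, 141 and 139 CPM and at 74.4, 66.9 and 67.9 CPM, and its control libraries lay close together. WIPI1 was at 112, 118 and 117 CPM and at 78.4, 72.8 and 73.5 CPM. NBR1 was at 385, 416 and 390 CPM and at 272, 285 and 292 CPM, the smallest difference of all 120 genes (log2 fold change -0.44, SE 0.10). RAB11FIP4, an effector of recycling endosomes, was at 83.6, 79.9 and 73.5 CPM and at 34.4, 34.3 and 38.3 CPM. RAB11FIP4, TP53INP2 and OPTN were past both thresholds. The others were TOM1L2, BORCS6 and RAB42.

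Of the 14 genes of junctions, adhesion and the cytoskeleton, at 38.2% to 68.9% of control, 1 was past both thresholds. This was CLDN1, a claudin that seals tight junctions, at 36.8, 40.7 and 38.5 CPM and at 19.3, 21.0 and 22.2 CPM. JUP, the junction protein plakoglobin, was at 94.5, 77.6 and 87.2 CPM and at 54.0, 48.8 and 48.5 CPM, and TNS1, which links integrins to actin, was at 280, 283 and 234 CPM and at 133, 139 and 166 CPM. MARVELD3, a tight junction protein, was at 62.3% of control. AMOTL2, an angiomotin that binds YAP and is itself a YAP target, was at 35, 29.4 and 30.9 CPM and at 19.9, 19.3 and 21.2 CPM. CRYBG1, the gene of this group with the lowest share left, was at 8.16, 8.60 and 6.49 CPM and at 1.90, 3.49 and 3.49 CPM. The others were HEG1, FGD4, SYNE1, LIMA1, LIN7A, DLG3, ARHGEF39 and FCHSD1.

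Genes of transcription and chromatin comprised 10 genes at 41.3% to 64.5% of control, of which TCF23 and PBXIP1 were past both thresholds. TCF23, a basic helix-loop-helix factor, was at 21.2, 22 and 17.5 CPM and at 7.41, 7.41 and 10.3 CPM. DBP, a PAR bZIP factor driven by the circadian clock, was at 6.92, 5.73 and 6.57 CPM and at 3.61, 2.70 and 2.36 CPM. FOXJ1, the regulator of motile cilia, was at 5.72, 6.06 and 5.58 CPM and at 3.21, 2.73 and 2.67 CPM. Both were near the minimum of 5 CPM in control cells. SOX6, a factor of the SOX family, was at 43.1, 50.4 and 56.9 CPM and at 28.8, 30.1 and 30.1 CPM. The others were ARID5B, HDAC11, SALL2, ZNF69 and ZIM2.

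The remaining 25 genes have other roles or none that is stated here, and 3 of them were past both thresholds, among them PLSCR5 and MVP. PLSCR5, of the phospholipid scramblase family, was at 4.99, 6.36 and 6.67 CPM and at 2.05, 1.53 and 1.91 CPM (log2 fold change -1.67, SE 0.20). MVP, the major vault protein, was at 43.5, 34.2 and 40.8 CPM and at 19.7, 19.5 and 17.8 CPM. BMF, a pro-apoptotic member of the BCL2 family, was at 41.3, 43 and 34.3 CPM and at 18.1, 16.3 and 26.0 CPM. The genes known only by an open reading frame number were C11orf52, C1orf115 and C12orf76, at 55.6%, 59.4% and 65.4% of control. The others were PLPPR1, RNF144B, NATD1, SPDYC, SRARP, NUGGC, EFCAB12, TMEM140, SNORC, ZFAND2B, RASSF4, ART4, CCDC183, WDR72, TCTA and ATOSA.

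PEG10 (chr7:94656325-94669695, plus strand), an imprinted gene derived from a retrotransposon and known to be abundant in liver cancer cells, was by far the most abundant of the 120 genes. It was at 6917, 8823 and 4824 CPM in control cells and at 1473, 1951 and 3369 CPM in sedanolide-treated cells. Control 3 was the lowest control library and sedanolide 3 the highest treated library, and they differed 1.43-fold, whereas the group means differed 3.03-fold. The fitted log2 fold change was -1.56 with an SE of 0.34, and it was not past both thresholds. PEG10 held 54.9%, 59.7% and 47.1% of the summed CPM of the lowered genes in control cells and 32.8% and 38.3% in sedanolide 1 and 2, with a larger share in sedanolide 3 than in these. The summed level of the 120 genes was 12592, 14789 and 10234 CPM in control cells and 4493, 5094 and 6731 CPM in sedanolide-treated cells. Without PEG10 it was 5675, 5965 and 5410 CPM and 3020, 3143 and 3363 CPM.

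RGPD5 had the lowest share left in the count table, but this did not hold in the second table. In CPM it was at 17.4, 13.7 and 29.4 CPM in control cells and at 0.51, 0.75 and 7.41 CPM in sedanolide-treated cells, with sedanolide 3 far above the other treated libraries. In the second table it was at 4.70, 14 and 6.29 TPM in control cells and at 5.59, 1.25 and 2.34 TPM in sedanolide-treated cells, so that the groups overlapped, sedanolide 1 was the highest treated library and 36.7% of the control mean was left. RGPD5 is part of a family of near-identical copies on chromosome 2, and its counts were fractional in all 6 libraries, that is RSEM divided reads between loci, and its level is uncertain. The SE of its log2 fold change of -2.75 was 0.88.

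**Figure D3:**
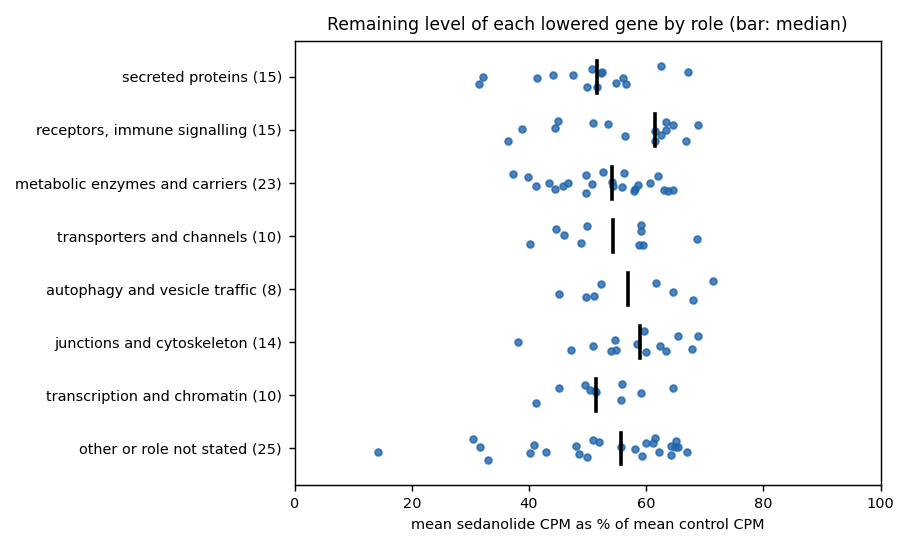
Each point is a lowered gene, placed by its mean sedanolide CPM as a percentage of its mean control CPM, in rows by role with the number of genes in brackets. The black bar is the median of the row, from 51.4% for transcription and chromatin to 61.5% for receptors and immune signalling. The lowest point is RGPD5, at 14.3% in CPM, which was at 36.7% in TPM with groups that overlapped.

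The libraries also split across the treatment groups. The first principal component (56.1% of the variance of log2 CPM) separated control 1, control 2 and sedanolide 3, called side A, from control 3, sedanolide 1 and sedanolide 2, called side B. The mitochondrial share of the counts was 1.43% to 2.15% on side A and 4.23% to 5.22% on side B, and no batch is named in the labels or the methods. Of the lowered genes, 44 (36.7%) were higher on side A in both conditions and 10 (8.33%) were higher on side B in both conditions, compared with 34.6% and 36.3% of the 10007 genes. The rule asks for little spread within a group, and the median coefficient of variation was 9.34% in control cells and 9.44% in sedanolide-treated cells for the lowered genes and 13.1% and 13.6% for the 10007 genes. Across genes, the difference between the sides in control cells and in sedanolide-treated cells had a Spearman rho of 0.59 (Pearson r = 0.17, with RGPD5 far from the rest) for the 120 lowered genes and 0.92 (Pearson r = 0.89) for 10006 genes. Genes are not independent replicates and share the libraries, so that these values are a description.

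**Figure D4:**
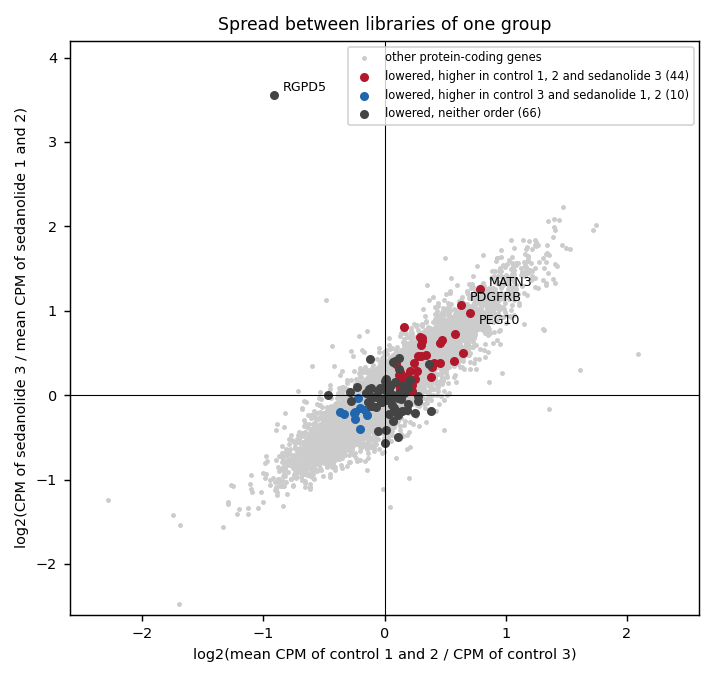
The x axis gives log2 of the mean CPM of control 1 and control 2 over the CPM of control 3, and the y axis log2 of the CPM of sedanolide 3 over the mean CPM of sedanolide 1 and sedanolide 2. Red points are the 44 lowered genes that were higher on side A in both conditions, blue points the 10 that were higher on side B, dark points the other 66, and grey points the other protein-coding genes, of which 4 lie outside the axes.

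The genes with higher levels on side A included MATN3, PDGFRB, PEG10, PLPPR1, SERPINA7, SCN9A, HEG1 and METTL7A. The 10 genes with higher levels on side B were OPTN, LIN7A, SULT2A1, IFIT1, TNFSF10, LGALS8, SOCS3, SALL2, ZFAND2B and NUGGC, of which 4 belong to receptors and immune signalling. In that group 1 gene, PDGFRB, was higher on side A, whereas 12 of the 23 metabolic enzymes and 9 of the 15 secreted proteins were. Within side A the log2 ratio of sedanolide to control had a median of -0.82 over the lowered genes, and within side B it was -0.86, compared with 0.00 and -0.02 for the 10007 genes. For the lowered genes the rule itself puts the ratio below 0 within each side, so that these medians are a description only. The part of the difference between the sides in the lowered levels was not tested.

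Lists of pathway genes, written from general knowledge, showed how far the lowered genes stood with others of their pathways. Each list is given by how many of its tested members were past both thresholds in edgeR and by its median log2 fold change, where 44 features were lower (0.312%) and 51 higher (0.362%) among all 14104 and the median was 0.01. Of all these features, 6949 were below 0 and 7155 above. Of 16 hepatocyte solute carriers, 1 was past both thresholds in the lowered direction, SLC22A9, and none in the other. The median was -0.31, with 13 below 0, including SLC2A2. Of 24 plasma proteins other than apolipoprotein, complement and coagulation proteins, none was past both thresholds, the median was -0.25 and 18 were below 0. TTR, ITIH3 and SERPINA7 were the lowered genes among them. Of 11 PPARA targets, FABP1 was past both thresholds and the median was -0.02, so that FABP1 stood apart from CPT1A (-0.02), ACADM (-0.12) and HADHA (0.12).

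Among 13 targets of YAP and TEAD, none was past both thresholds, 12 were below 0 and the median was -0.47. AMOTL2 (-0.62) was the lowered gene here, beside CCN2 (-0.74) and ANKRD1 (-0.76), which did not meet the ratio of the rule. Of 18 growth factor receptors, 17 were below 0 with a median of -0.15, and PDGFRB (-1.42) was the lowest. The median of this list lay between -0.34 and -0.01 across the ways of processing the data. Of 13 interferon-stimulated genes, 9 were below 0 with a median of -0.24, and IFIT1 was at -0.78. IFIT2 (-1.16), IRF9 (-0.99), IFI6 (-0.93) and IRF1 (-0.68), which did not meet the rule, were as low or nearly so. Of these, IFIT2 and IFI6 had control levels of only 0.85 to 1.26 and 1.42 to 2.18 CPM, under the minimum of 5 CPM. ISG15 and OAS1 were at 0.02 and 0.14. None of the receptors or interferon-stimulated genes was past both thresholds. Of 26 genes of amino acid breakdown, the median was -0.08 and HAL (-1.28) was the lowered gene.

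The lists without a lowered gene were FOXO targets, glucocorticoid receptor targets, targets of TGF-beta and BMP, extracellular matrix and integrins, and the Notch pathway. Of 19 FOXO targets 3 were past both thresholds in the lowered direction and of 15 glucocorticoid receptor targets 1, all among the genes that the rule leaves out by name, with medians of -0.32 and 0.01. The medians of the other lists were -0.13 (13 genes), -0.23 (22 genes) and -0.06 (11 genes), with no gene past both thresholds. The median of extracellular matrix and integrins lay between -0.56 and -0.004 across the ways of processing the data, the widest range of these lists.

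**Figure D5:**
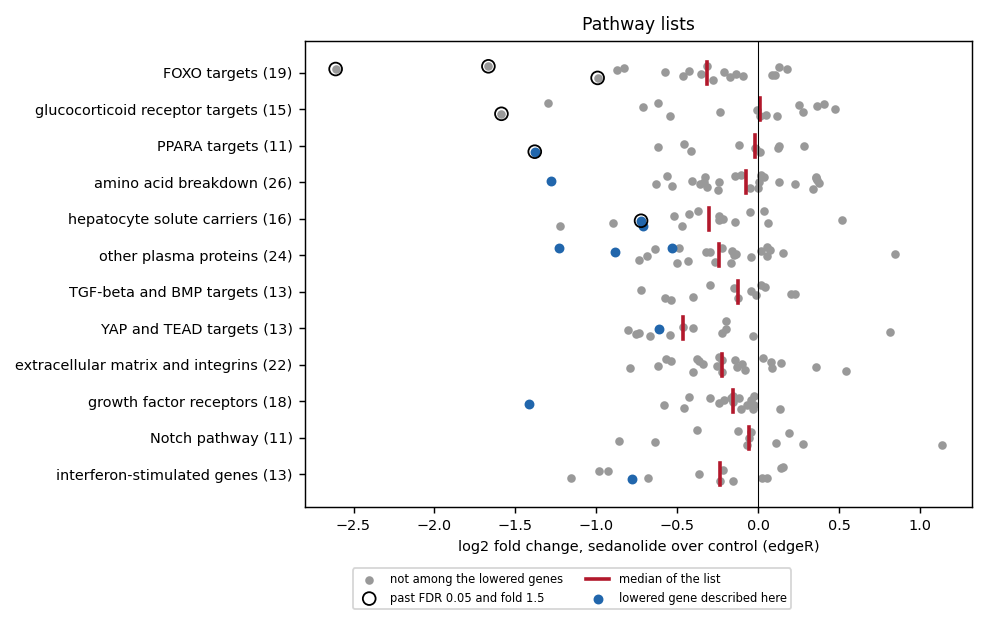
Each point is a gene of the list named on the y axis, with the number of genes tested in brackets, and the x axis is its edgeR log2 fold change of sedanolide over control. Blue points are lowered genes, circles mark genes past both thresholds, and red bars are the medians, from -0.47 for YAP and TEAD targets to 0.01 for glucocorticoid receptor targets.

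The label of the cells was checked against markers. All 8 hepatocyte markers passed the filter on low counts. Of 5 cholangiocyte markers 3 did, of 6 of stellate cells and fibroblasts 1 (PDGFRB), of 5 of endothelial cells 1, and of 5 of macrophages and leukocytes 3. The summed level of the hepatocyte markers was 18337 to 27723 CPM in control cells and 14359 to 21377 CPM in sedanolide-treated cells. Much of it was AFP, at 13564, 18976 and 7943 CPM and at 4854, 7099 and 13345 CPM. By log2 fold change, 5 of the 8 hepatocyte markers were below 0 and 3 above, and none was past both thresholds. The summed level of the stellate cell and fibroblast markers was 15.2 to 24.6 CPM and 5.26 to 11.4 CPM, nearly all of it PDGFRB. That of the endothelial markers was 4.14 to 5.24 CPM and 3.91 to 5.13 CPM. The macrophage and leukocyte markers summed to 825 to 1370 CPM and 473 to 776 CPM, which included LYZ, and the cholangiocyte markers to 271 to 334 CPM and 218 to 311 CPM. In these bulk samples, fewer cells that express a gene and less RNA of it per cell cannot be told apart.

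Reads could be shared with other genes in some cases. Fractional counts in at least 1 library were found for 31 of the 120 genes. An overlapping gene with counts of at least 10% of its own was found for 26. RASSF4 lies over DEPP1, 1 of the genes left out by the rule, on the opposite strand, and DEPP1 held 375% of the counts of RASSF4. IGFBP7 overlaps POLR2B on the opposite strand, FMO5 overlaps CHD1L and TCTA overlaps RHOA in the same way, and SNORC and ZIM2 overlap GIGYF2 and PEG3 in part on the same strand. MVP and SLC13A3, both past both thresholds, also overlap PAGR1 and TP53RK on the same strand. These partners held 151% and 63.1% of their counts. POLR2B held 1686% of the counts of IGFBP7, and CHD1L held 424% of those of FMO5. SCNN1A and ACSM3, also past both thresholds, overlap LTBR (165%) and ERI2 (58.6%) on the opposite strand. CRYBG1 overlaps RTN4IP1 (184%) in the same way. Counts were fractional in all 6 libraries for IGFBP7 and ACSM3 and in 4 for SCNN1A and CRYBG1. LIN7A and ACSS3 are both lowered genes and overlap each other on opposite strands of chromosome 12 by 1521 bases. LIN7A was at 60.0% and ACSS3 at 63.8% of control. The library kit keeps strand, but the strand setting of the counting is not given in the sources used here, so that the levels of these genes may hold reads of their partners.

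At the limit of the ratio, the values inside and outside were alike. The genes just inside 1.3 were SLC16A10 (at 27.3 to 29.5 CPM in treated cells), ARID5B and WDR72. ARID5B was at 23.6, 29.2 and 21.2 CPM and at 9.20, 11.8 and 16.3 CPM, and WDR72 at 66.2, 81.3 and 79.8 CPM and at 48.4, 50.8 and 48.4 CPM. The genes just outside were TMEM141, PLPP6 and MARCHF2. TMEM141 was at 87.4, 70.8 and 65.5 CPM and at 50.4, 50.2 and 46.3 CPM, PLPP6 at 28.9, 29.6 and 25.9 CPM and at 19.9, 18.0 and 18.0 CPM, and MARCHF2 at 15.4, 11.1 and 13.7 CPM and at 8.57, 7.49 and 6.66 CPM. By its group means MARCHF2 was lower than several genes inside, since the rule reads the nearest pair of libraries.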

How the data were processed

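Luciferases-expressing HepG2 cells were sequenced as 3 control and 3 sedanolide libraries, grouped by their labels. According to the methods and the submitters' processing notes, mRNA was captured, directional libraries gave 150 bp paired-end reads, and the authors used FastQC, Trimmomatic, STAR with GRCh38 and RSEM. Versions and the annotation release are not given in the sources used here. The authors deposited expected counts, not normalized, for 61543 rows, and a second table of log2 values, read as log2(TPM + 1), for 11006 rows whose filter is not stated.

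CPM were taken over each library total. The p-values behind calls set the difference between the groups against the spread between these libraries. In the main fit, which has no term for the side, this spread includes the split between the sides. Counts were rounded and tested in R 4.3.3 with edgeR 4.0.16 (filterByExpr, TMM, robust quasi-likelihood, Benjamini-Hochberg FDR of 0.05, fold change of 1.5). DESeq2 1.42.0 was an alternative, and limma 3.58.1 served for voom and the second table. SE is the absolute log2 fold change over the square root of F. The procedure was tested on simulated counts with the same dispersion for every gene and no split between libraries. That test does not cover the split seen in the real libraries. The members, lists, roles and the side split were chosen with earlier results of these data known. Genes are named when they had the 20 largest ratios, were in a list, at the limit of the ratio, among the 5 highest TPM or in a symbol family, or else were chosen for their role after their values were seen. A replicate number did not pair libraries. Of the lowered genes, 1 is not reported here and stays in all counts.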

Additional observations from a re-analysis of the deposited data

How the results depend on the processing

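The rule met 232 genes at a ratio of 1.2, 53 at 1.5 and 194 at a control mean of 1 CPM. Between 129 and 335 genes met it when 1 library was left out, with 212 without control 3 and 335 without sedanolide 3. A minimum of 10 CPM gave 89, TMM library sizes 102, DESeq2 size factors 99 and TPM of the other deposited file 125 genes, of which 75 were among the 120 genes. In the fit, 95 features were past both thresholds and 30 of the 120 genes. These counts were 328 and 100 with DESeq2, 158 and 53 with all genes of at least 1 count (26457 tested), 381 and 98 with the side as a term, and 61 and 24 in the log2(TPM + 1) values as deposited. With 1 library left out they were between 0 and 136 features and between 0 and 42 genes. Leaving out sedanolide 3 gave the highest counts. Leaving out control 1 or sedanolide 2 gave 0 features, with 1067 and 889 features at an unadjusted p under 0.05. Control 2, control 3 and sedanolide 1 gave 8, 29 and 13 features. The causes were not tested. Numbers in the labels did not pair the libraries, since deviations of equal numbers correlated at -0.13, -0.30 and -0.73. The replicate block gave 0 features and 0 genes, with 772 features at an unadjusted p under 0.05. The fold changes of all 120 genes, or of the 108 in the second table, were below 0 under every alternative, which the choice of genes largely fixes. Their median was between -0.91 and -0.81. No named gene reversed. Medians of the lists for amino acid breakdown, the Notch pathway and glucocorticoid receptor targets changed sign between alternatives, with ranges of -0.18 to 0.02, -0.23 to 0.08 and -0.06 to 0.05.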

Other observations

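Rows that are not annotated as protein-coding were not part of the rule. Of these, 12 met the same ratio of 1.3 and the minimum of 5 CPM. They were 7 long noncoding RNAs, 4 pseudogenes and the ELuc reporter. LINC00654 was at 4.85, 6.87 and 5.86 CPM in control cells and at 2.31, 2.28 and 2.78 CPM in sedanolide-treated cells. CERNA2 was at 4.81, 6.36 and 6.49 CPM and at 2.26, 2.36 and 2.11 CPM. PEG13, a noncoding RNA of an imprinted locus, was at 6.39, 6.15 and 9.00 CPM and at 3.78, 3.86 and 3.31 CPM. The others were LINC00467, LINC01124, MRPL23-AS1 and RAB11B-AS1, with treated means of 2.67 to 7.41 CPM. Among the pseudogenes, ACSL3P1 was at 22, 29.8 and 14.5 CPM and at 3.73, 5.47 and 9.77 CPM, with the same order of libraries as PEG10. The other pseudogenes were GTF2IP4, ABCC6P1 and PDCD6IPP2. All 4 share sequence with genes elsewhere, so that their counts are uncertain.

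The ELuc reporter, which carries a thymidine kinase promoter and serves as the internal control of the cells, was at 18.8, 19.2 and 18.6 CPM in control cells and at 12.7, 9.77 and 8.18 CPM in sedanolide-treated cells (18.9 and 10.2 CPM on average). Its log2 fold change was -0.84 with an SE of 0.18, and the adjusted p of edgeR was 0.131, so that it did not pass the threshold. SLR3, the reporter of ARE-dependent transcription, was at 16.3, 15.0 and 18.2 CPM and at 68.0, 66.7 and 59.8 CPM.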
